A study of Mus musculus with 6 samples.

Results

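Cadherins are calcium-dependent adhesion proteins of the cell surface, and 45 genes of this superfamily were examined among the 21286 genes of the deposited table. They were taken by symbol alone, as every numbered Cdh gene and every nonclustered protocadherin together with the Celsr, Fat, Dachsous (Dchs) and calsyntenin (Clstn) genes, so the rule itself uses no measured value, although it was written with earlier results of these data known. The clustered protocadherins lie outside this set, and the set holds more than classic cadherins in the strict sense, since the Celsr, Fat, Dchs and Clstn genes and Cdh13, Cdh17, Cdh23 and Cdh26 belong to other branches. The tissue was the lateral ganglionic eminence (LGE), a ventral forebrain region that gives rise to striatal projection neurons and olfactory bulb interneurons, dissected from mice at embryonic day 16.5 for RNA sequencing. There were 3 libraries from Dlx1/2-/- mutants and 3 from wild type littermates, all on the same mixed background of C57BL/6J, 129S6 and CD1. Dlx1 and Dlx2 encode homeodomain transcription factors of ganglionic eminence progenitors and young neurons, and the comparison asks which genes differ where both are lost. The sources used here do not state which stretches of the genes the mutant alleles remove.

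Classic cadherins bind a cadherin on a neighbouring cell through their outermost domains and hold the actin cytoskeleton through catenins on the inside. The type I group includes N-cadherin, which joins neuroepithelial cells to each other, while the type II group has many members whose combinations differ between brain nuclei and neuron classes. Delta protocadherins are weaker adhesion molecules that recruit actin regulators, Celsr and Fat-Dachsous proteins are giant cadherins of tissue polarity and growth control, and calsyntenins are synaptic and transport proteins with short cadherin repeats.

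The libraries held 15670067 to 16196974 counts in the mutant and 10711630 to 16588359 in wild type. Dlx1 stood at 109.3, 119.3 and 137.6 counts scaled to library size (CPM) in mutant replicates 1 to 3, against 898.4, 843.8 and 831.4 CPM in wild type replicates 1 to 3. Dlx2 stood at 16.2, 15.5 and 18.7 CPM in the mutant, against 470.7, 418.8 and 419.4 CPM in wild type, so every library matched its label. Nothing in the labels ties each library to its own embryo, so p-values measure only how far these libraries scatter. All mutant libraries share one name prefix and all wild type libraries another, and a batch that follows the names cannot be told apart from genotype. Xist is the RNA that coats the inactive X chromosome. Its CPM of the unscaled library total was 4580 in mutant replicate 3 and 3930 in wild type replicate 1. It was 1.45 to 9.75 in the other 4 libraries, so each genotype had 1 library with high Xist. Ddx3y, a gene of the Y chromosome, had 0 reads in mutant replicate 3 and wild type replicate 1. On the same scale it stood at 56.1 to 82.2 CPM in the other 4 libraries. By these genes mutant replicate 3 and wild type replicate 1 were female and the other 4 libraries male. In this bulk tissue, fewer cells of a type and less RNA per cell cannot be told apart.

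The type II cadherins and the delta-2 protocadherins each held members with large differences in both directions. The promoter windows of 5 such members are shown because opposite differences arose in close relatives. Of 3 windows of Cdh7 the one that holds TAATTA is shown, picked for that, and the others hold none. They run from 250 bases before to 50 bases after the annotated start, on GRCm38.p6, and are RefSeq sequences given 5′ to 3′ on the strand of the gene. Cdh8 was lower and Cdh7 higher in the mutant, Pcdh17 was lower, and Pcdh18 and Pcdh19 were higher. Capitals mark TAATTA, a core that many homeodomain proteins can bind, and GATTGGCT or its reverse complement AGCCAATC, which contain the CCAAT box of many promoters.
Cdh8, chr8:99416422-99416721, minus strand: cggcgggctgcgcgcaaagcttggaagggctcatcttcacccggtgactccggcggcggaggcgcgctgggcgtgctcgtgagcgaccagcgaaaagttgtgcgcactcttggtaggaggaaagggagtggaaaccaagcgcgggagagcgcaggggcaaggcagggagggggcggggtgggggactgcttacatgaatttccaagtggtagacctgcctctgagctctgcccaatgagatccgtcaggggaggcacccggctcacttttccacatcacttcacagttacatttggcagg
Cdh7, chr1:109983473-109983772, plus strand: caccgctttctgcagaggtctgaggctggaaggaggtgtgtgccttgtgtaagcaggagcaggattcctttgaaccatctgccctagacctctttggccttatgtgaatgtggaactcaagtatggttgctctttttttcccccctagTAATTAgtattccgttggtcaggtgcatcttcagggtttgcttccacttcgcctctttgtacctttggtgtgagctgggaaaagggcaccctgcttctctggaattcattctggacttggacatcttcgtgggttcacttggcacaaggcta
Pcdh17, chr14:84443313-84443612, plus strand: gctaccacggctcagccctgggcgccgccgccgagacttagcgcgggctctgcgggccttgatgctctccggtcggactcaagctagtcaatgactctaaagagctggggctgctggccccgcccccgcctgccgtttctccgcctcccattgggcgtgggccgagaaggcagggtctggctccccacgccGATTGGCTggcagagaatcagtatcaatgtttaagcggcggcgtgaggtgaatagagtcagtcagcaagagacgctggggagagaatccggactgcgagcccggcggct
Pcdh18, chr3:49757267-49757566, minus strand: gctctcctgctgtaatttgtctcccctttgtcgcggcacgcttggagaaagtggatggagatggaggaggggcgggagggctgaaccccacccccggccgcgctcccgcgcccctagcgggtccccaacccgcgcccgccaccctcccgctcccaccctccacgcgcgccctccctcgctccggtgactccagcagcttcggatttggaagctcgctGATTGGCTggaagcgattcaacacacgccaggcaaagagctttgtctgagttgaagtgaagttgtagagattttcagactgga
Pcdh19, chrX:133688944-133689243, minus strand: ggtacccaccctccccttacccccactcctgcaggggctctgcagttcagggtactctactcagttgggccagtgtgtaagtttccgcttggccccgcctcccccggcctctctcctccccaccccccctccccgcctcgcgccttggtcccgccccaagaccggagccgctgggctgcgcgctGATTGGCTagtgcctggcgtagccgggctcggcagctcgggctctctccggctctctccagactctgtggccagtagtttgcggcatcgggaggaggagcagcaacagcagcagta

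A window was found for 31 of the 45 members, with 35 windows in all because some genes have several starts. TAATTA, which reads the same on both strands, stood in 1 of these 35 windows, or 2.86%, against 1738 of all 32851 windows, or 5.29%. That window is the most downstream of 3 starts of Cdh7, where the core lies 102 bases before the start. Of the windows of members that were lower in the mutant, 0 of 7 held it. GATTGGCT was picked after the windows had been read and was searched on both strands without overlap with TAATTA. It occurred in 5 of 35 member windows, or 14.3%, and in 1260 of all 32851 windows, or 3.84%. Those of the delta-2 protocadherins were Pcdh17, with the octamer 59 bases before the start, Pcdh18 at 33 bases and Pcdh19 at 66 bases. It stood there in members of both directions, and the type II genes Cdh9 and Cdh18 held it as well. A match describes the letters of a window and not a bound site.

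Across the superfamily many genes differed between genotypes, in both directions and about evenly. Counts were compared with edgeR's quasi-likelihood test, two-sided, with Benjamini-Hochberg adjustment over all 15326 genes tested and a call at adjusted p below 0.05. Of the 45 members, 40 had enough reads to be tested. Among them 9 were higher in the mutant, where the background over all genes was 11.2%, and 10 were lower, where the background was 12.8%. In all, 19 of 40 members were called, or 47.5%, beside 24.0% of all genes tested. At 2-fold or more, 6 were higher (background 2.84%) and 6 were lower (background 4.04%), which makes 30.0% of the tested members beside 6.88% of all genes. These counts include Cdh23 and Cdh9, which passed the filter on low counts only through the group where they are high. Over the 36 members that passed it in both groups, 8 were higher and 9 lower, or 47.2% called. Of these 36, 5 in each direction reached 2-fold, or 27.8%. The groups of libraries did not overlap for 26 members, or 65.0%, beside 41.9% of all genes. These 26 comprised all 19 called members and 7 uncalled ones. They include Cdh9, Cdh23 and the uncalled Cdh15, which passed the filter only through the group where they are high. Over the 36 members that passed it in both groups, the groups did not overlap for 23, or 63.9%. The median log2 fold change was 0.03 over the members and 0.0028 over all genes, while the median of its absolute value was 0.54 over the members and 0.19 over all genes. In the authors' deposited table, p was below 0.05 for all 19 called members and for 4 of the 21 uncalled ones. That p comes from the same libraries and is labelled only as a p-value, so its threshold may differ from that of the calls. Its share below 0.05 over all genes was not counted.

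**Figure D1:**
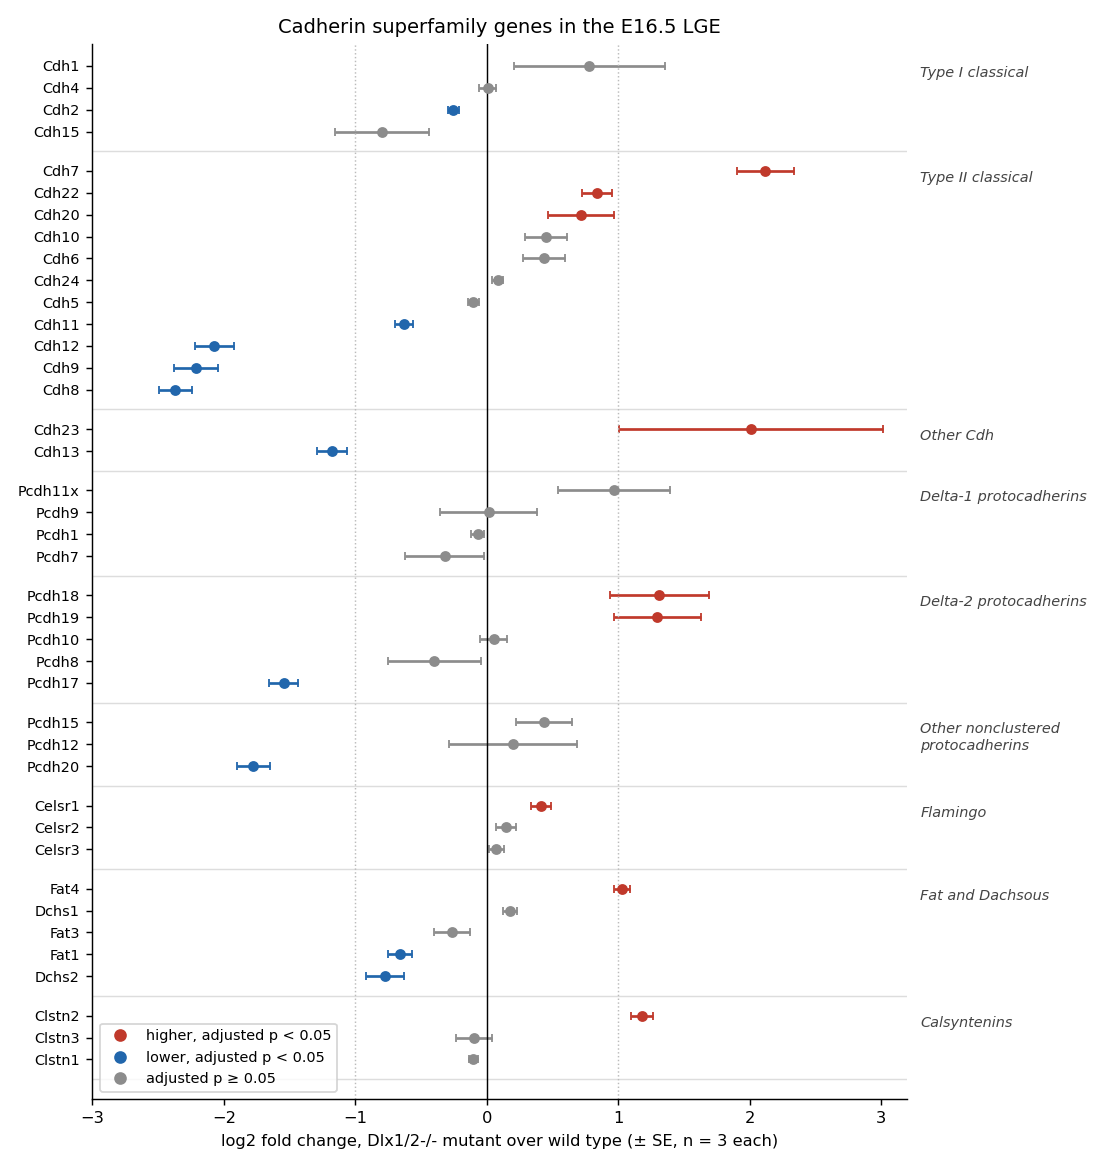
Log2 fold change of each of the 40 tested members, mutant over wild type, with its SE (n = 3 libraries each), ordered by subfamily and coloured by call. The values run from −2.37 for Cdh8 to 2.12 for Cdh7, with 9 members called higher and 10 called lower.

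The summed level of the superfamily overlapped between genotypes while its makeup differed. The deposited FPKM, which scales reads by gene length and library size, summed over the 45 members to 341.5, 342.7 and 354.4 in mutant replicates 1 to 3, against 349.7, 353.6 and 354.1 in wild type replicates 1 to 3. That was 346.2 ± 7.12 FPKM in the mutant and 352.5 ± 2.42 FPKM in wild type (mean ± SD, n = 3 each). Of the 9 members with at least 10 FPKM in wild type, 3 were called and 1 of them, Cdh8, passed 2-fold. Of the 31 tested members below that level, 16 were called, beside 24.0% of all genes tested at any level. The split uses the wild type level, so a gene that is higher in the mutant can fall below it. Clstn2 had 11.2 FPKM in the mutant and 4.87 FPKM in wild type. By the mutant level, 8 members had at least 10 FPKM. The other called members at 10 FPKM or more in wild type were Cdh11, 1.55-fold lower, and Cdh2, 1.19-fold lower. The uncalled members at that level, such as Clstn1, Celsr3, Dchs1 and Cdh24, differed by at most 1.13-fold, the value of Dchs1. Every call at 2-fold or more other than Cdh8 lay below 10 FPKM in wild type.

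The type II cadherins covered the widest range of fold changes among the 9 subfamilies, with 3 of 11 tested members higher, 4 lower and 4 not called. That was 63.6% called, and the counts of every subfamily are to be read beside the 24.0% called over all genes. Cdh8 (ENSMUSG00000036510, chromosome 8, 99024471 to 99416471, minus strand, GRCm38 here and below), a type II cadherin known from striatal, cortical and thalamic circuits, stood at 23.5, 19.9 and 24.3 CPM in the mutant, against 102.8, 126.2 and 120.5 CPM in wild type. Every mutant library lay below every wild type library by a wide margin. Cdh8 averaged 22.6 ± 2.36 CPM in the mutant and 116.5 ± 12.2 CPM in wild type, with a log2 fold change of −2.37 ± 0.13 (SE) and adjusted p = 4.17e-06, or 5.17-fold lower. Per length this was 2.20 FPKM in the mutant and 11.2 FPKM in wild type.

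Cdh7 (ENSMUSG00000026312, chromosome 1, 109982431 to 110140157, plus strand), which in the chick marks sets of neural crest cells and spinal and brain nuclei, moved the other way. It stood at 21.9, 30.6 and 26.2 CPM in the mutant, against 7.37, 4.94 and 5.97 CPM in wild type, so that the lowest mutant library was still well above the highest wild type library. Its mean was 26.2 ± 4.37 CPM in the mutant and 6.09 ± 1.22 CPM in wild type, with a log2 fold change of 2.12 ± 0.22 and adjusted p = 9.00e-05. Set per kilobase of annotated exon, Cdh7 and Cdh8 were at 2.61 and 2.91 CPM in the mutant, close to each other, against 0.607 and 15.05 CPM in wild type.

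A pair of sparse type II genes, Cdh9 and Cdh12, fell about as steeply as Cdh8. Cdh9 (ENSMUSG00000025370, chromosome 15, 16728756 to 16857094, plus strand), which is known to specify synapses in the hippocampus and retina, had 0.610, 0.696 and 0.818 CPM in the mutant, against 2.77, 3.38 and 3.68 CPM in wild type. These values rest on 34 reads over the mutant group and 142 over the wild type group, and the groups did not overlap. Its log2 fold change was −2.21 ± 0.17 with adjusted p = 0.000353. Cdh9 passed the filter on low counts through the wild type libraries alone. Cdh12 (ENSMUSG00000040452, chromosome 15, 20449265 to 21589533, plus strand), a brain cadherin of the same chromosome, had 1.52, 1.58 and 1.38 CPM in the mutant, against 7.08, 5.20 and 6.76 CPM in wild type, from 72 mutant and 266 wild type reads. Its groups were also apart, with a log2 fold change of −2.07 ± 0.15 and adjusted p = 0.000181. In single libraries 3 counts equal 0.181 to 0.287 CPM, so that the mutant level of Cdh9 was only a few counts per library above it.

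Smaller differences were called for 3 more type II members. Cdh11, or OB-cadherin, which mesenchymal cells and neurons both use, had 43.0, 48.7 and 47.9 CPM in the mutant, against 75.2, 72.6 and 68.1 CPM in wild type (log2 fold change −0.63 ± 0.07, adjusted p = 0.000604). Cdh22, a cadherin of the pituitary and brain, had 19.1, 21.01 and 24.6 CPM in the mutant, against 11.3, 12.1 and 12.7 CPM in wild type (0.84 ± 0.12, adjusted p = 0.00145). In both genes the groups stood apart. Cdh20, a close relative of Cdh7, had 8.23, 7.47 and 5.98 CPM in the mutant, against 3.16, 4.94 and 4.89 CPM in wild type, its log2 fold change being 0.72 ± 0.25 and its adjusted p = 0.0392. The call on Cdh20 was lost without mutant replicate 1 (adjusted p = 0.122), without mutant replicate 2 (0.102) and without any single wild type replicate (0.0611 to 0.0669).

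The type II gene of highest level per length, Cdh24, whose tail binds catenins, did not pass the test. It had 80.8, 86.4 and 87.3 CPM in the mutant, against 82.0, 80.9 and 77.4 CPM in wild type, and the groups overlapped (log2 fold change 0.08 ± 0.04, adjusted p = 0.348). VE-cadherin, encoded by Cdh5 and specific to endothelium, stood at 14.6 ± 0.709 CPM in the mutant and 15.7 ± 0.204 CPM in wild type (adjusted p = 0.435). The summed CPM of 7 endothelial markers was 127.8 to 137.8 in the mutant and 133.7 to 153.6 in wild type, and 1 of the 7, Flt1, was called lower. Cdh6, a cadherin that marks compartments of the embryonic forebrain, had 10.6 ± 1.75 CPM in the mutant and 7.83 ± 0.621 CPM in wild type, with adjusted p = 0.0698, and was called without mutant replicate 1 (adjusted p = 0.0263). Cdh10 had 12.1 ± 1.39 CPM in the mutant and 8.79 ± 1.36 CPM in wild type, with adjusted p = 0.0549. Cdh18 had 34 reads over the mutant group and 7 over the wild type group, and Cdh19, a cadherin of Schwann cell precursors, had 2 in the mutant and 0 in wild type. Neither could be tested.

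**Figure D2:**
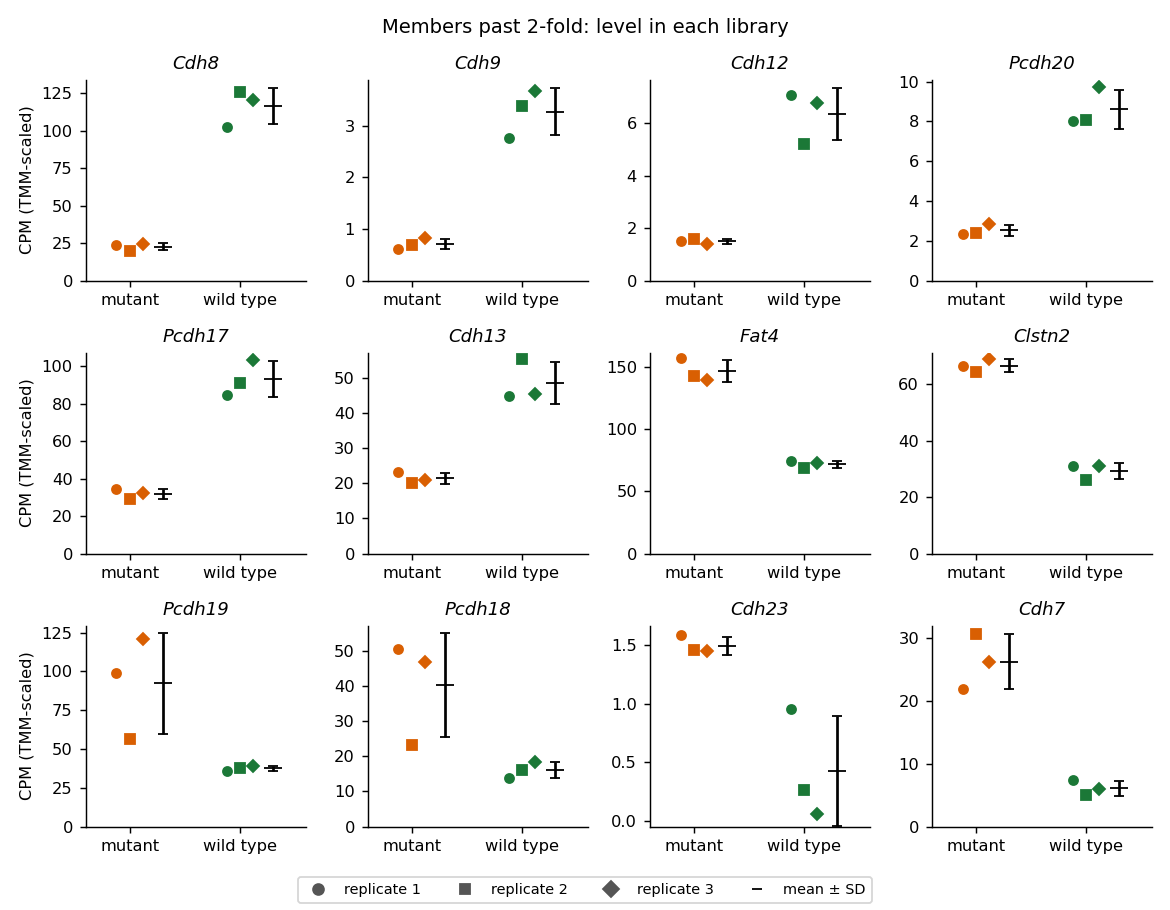
Level of each member called at 2-fold or more, in CPM, with one point per library, mutant left and wild type right, and bars for the mean ± SD (n = 3 each). The 6 higher and 6 lower members each have all mutant points on one side of all wild type points, and the scale differs between panels.

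Both the sum and the makeup of the type II group differed between genotypes. Its summed level was 62.3 ± 2.67 FPKM in the mutant and 71.1 ± 1.71 FPKM in wild type. The libraries ran from 59.2 to 64.1 FPKM in the mutant and from 69.9 to 73.1 FPKM in wild type, without overlap. The share of Cdh8 in that sum was 3.55 ± 0.457% in the mutant and 15.7 ± 1.56% in wild type. Cdh24 made up 50.3 ± 0.434% in the mutant and 40.9 ± 0.936% in wild type, and Cdh22 8.18 ± 0.790% in the mutant and 3.94 ± 0.262% in wild type. A share also depends on the sum, and Cdh24 itself was not called, at 31.3 FPKM in the mutant and 29.1 FPKM in wild type. The share of Cdh7 was 2.14 ± 0.276% in the mutant and 0.430 ± 0.0897% in wild type. The length behind the deposited FPKM was 0.292 to 3.37 times the annotated exon length of the members, so levels of different genes were also set per kilobase of annotated exon. On that scale the share of Cdh8 was 5.94 ± 0.728% in the mutant and 25.7 ± 2.13% in wild type, and that of Cdh7 was 5.30% in the mutant and 1.04% in wild type.

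**Figure D3:**
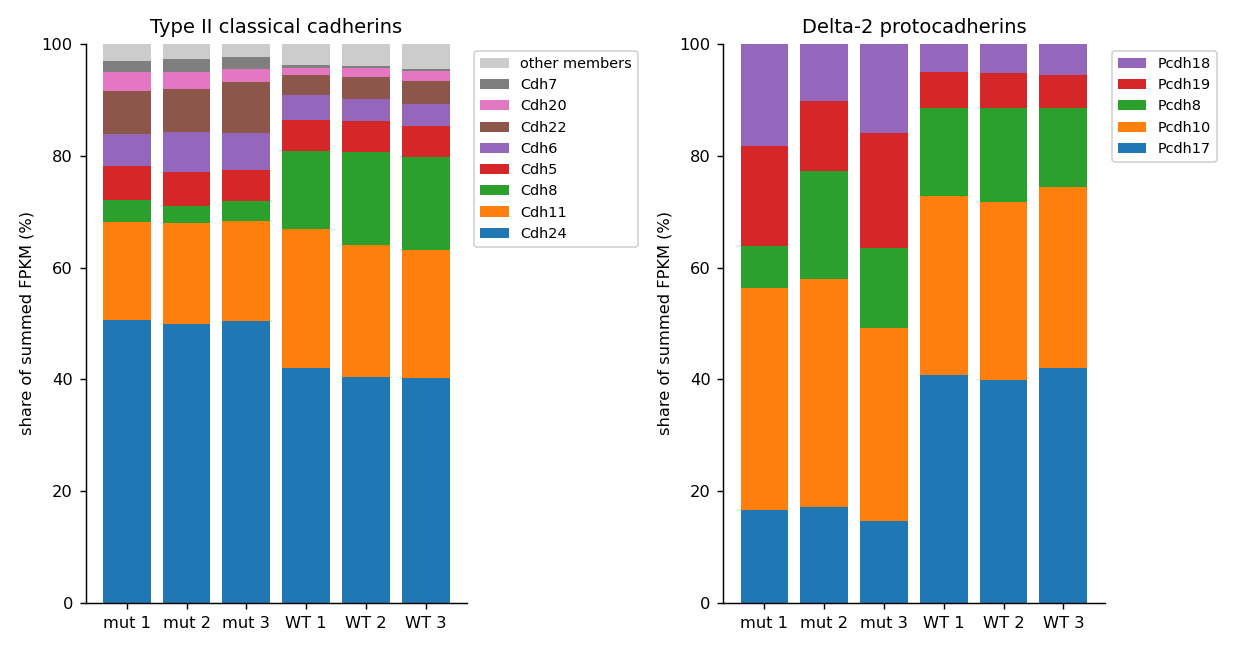
Share of each member in the summed FPKM of the type II cadherins and of the delta-2 protocadherins, one stacked bar per library, mutant libraries left of wild type. Cdh8 takes 3.55% on average in the mutant and 15.7% in wild type, and Pcdh17 takes 16.2% in the mutant and 40.9% in wild type.

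Of 4 tested type I cadherins, 1 was lower and 0 were higher, or 25% called beside 24.0% of all genes. Cdh2, which encodes N-cadherin and is the most abundant classic cadherin here at 37.4 ± 1.16 FPKM in the mutant and 44.0 ± 1.44 FPKM in wild type, had 343.7, 361.5 and 369.5 CPM in the mutant, against 433.0, 439.0 and 410.9 CPM in wild type. All mutant libraries were below all wild type libraries, but by a small margin: the log2 fold change was −0.26 ± 0.04 with adjusted p = 0.00709, or 1.19-fold lower. Cdh4, or R-cadherin, had 76.7, 69.7 and 73.3 CPM in the mutant, against 69.2, 71.2 and 77.9 CPM in wild type, with overlapping groups and adjusted p = 0.948. Cdh1, the E-cadherin gene of epithelia, averaged 0.982 CPM in the mutant and 0.563 CPM in wild type (log2 fold change 0.78 ± 0.58, adjusted p = 0.307). Cdh15, or M-cadherin of muscle, averaged 0.455 CPM in the mutant and 0.798 CPM in wild type (log2 fold change −0.80 ± 0.36, adjusted p = 0.151). These values rest on 47 mutant and 24 wild type reads of Cdh1, and on 22 mutant and 34 wild type reads of Cdh15. Cdh3, or P-cadherin, had 1 read over the mutant group and 5 over the wild type group and was not tested.

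Of the Cdh genes that belong to neither classic group, Cdh13 had reads enough for a firm value. Cdh13 (ENSMUSG00000031841, chromosome 8, 118283733 to 119324921, plus strand) encodes T-cadherin, which lacks a cytoplasmic tail and is held in the membrane by a lipid anchor. It had 23.3, 20.2 and 21.01 CPM in the mutant, against 45.0, 55.5 and 45.4 CPM in wild type. The groups were well apart, with a log2 fold change of −1.18 ± 0.12 and adjusted p = 0.000140, or 2.26-fold lower. Cdh23 (ENSMUSG00000012819, chromosome 10, 60302748 to 60696490, minus strand), a tip link protein of hair cells, had 1.58, 1.46 and 1.45 CPM in the mutant, against 0.957, 0.260 and 0.0604 CPM in wild type. Its 15 wild type reads fell mostly in replicate 1, it passed the filter through the mutant libraries alone, and the log2 fold change of 2.01 ± 1.003 had adjusted p = 0.0432. Without wild type replicate 1 its log2 fold change was 3.19, and without wild type replicate 3 it was 1.41 with the call lost (adjusted p = 0.0899). The call was also lost without wild type replicate 2 (adjusted p = 0.139) and without any single mutant replicate (0.0916 to 0.110). Cdh17 had 1 read over the mutant group and 3 over the wild type group, and Cdh26 had 4 in the mutant and 0 in wild type.

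Among the delta-2 protocadherins, 2 of 5 members were higher, 1 was lower and 2 were not called. Pcdh17 (ENSMUSG00000035566, chromosome 14, 84443563 to 84539002, plus strand), which in mouse is known to gather along corticostriatal axons and to act in basal ganglia synapses, was the lower one. It stood at 34.5, 29.2 and 32.1 CPM in the mutant, against 84.8, 91.0 and 103.6 CPM in wild type, with every mutant library far below every wild type library. Its means were 31.9 ± 2.67 CPM in the mutant and 93.1 ± 9.58 CPM in wild type, with a log2 fold change of −1.54 ± 0.11 and adjusted p = 2.02e-05, or 2.92-fold lower.

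Pcdh18 (ENSMUSG00000037892, chromosome 3, 49743296 to 49757325, minus strand), whose protein binds the Reelin adaptor Dab1, had 50.5, 23.2 and 46.9 CPM in the mutant, against 13.9, 16.05 and 18.3 CPM in wild type. Pcdh19 (ENSMUSG00000051323, chromosome X, 133582860 to 133688987, minus strand), the X-linked gene mutated in a human epilepsy of girls, had 98.9, 56.6 and 121.0 CPM in the mutant, against 35.8, 37.6 and 39.0 CPM in wild type. The groups did not overlap in either gene, but the mutant libraries scattered, with mutant replicate 2 lowest in both. The log2 fold change was 1.31 ± 0.38 for Pcdh18 (adjusted p = 0.0106) and 1.298 ± 0.330 for Pcdh19 (adjusted p = 0.00619). Among the libraries with low Xist alone, 2 mutant and 2 wild type, the value was 1.09 with adjusted p = 0.0804 for Pcdh18, so its call was lost, and 1.02 with adjusted p = 0.0369 for Pcdh19.

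Pcdh10, or OL-protocadherin, which guides striatal and thalamocortical axons in mouse, had the most reads of this group and did not pass the test. It had 227.9, 191.8 and 211.8 CPM in the mutant, against 185.8, 201.1 and 221.3 CPM in wild type, with overlapping groups (log2 fold change 0.05 ± 0.10, adjusted p = 0.685). Pcdh8, or arcadlin, which is made after neuronal activity in the rat hippocampus, had 20.8, 43.7 and 42.2 CPM in the mutant, against 43.4, 50.9 and 46.2 CPM in wild type (adjusted p = 0.285). Mutant replicate 1 alone was low there, and the groups overlapped through mutant replicate 2.

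The sum of the delta-2 group overlapped between genotypes, at 21.1 ± 2.73 FPKM in the mutant and 23.7 ± 2.26 FPKM in wild type, while its makeup shifted. The share of Pcdh17 in this sum was 16.2 ± 1.39% in the mutant and 40.9 ± 1.06% in wild type. Pcdh18 took 14.7 ± 4.12% in the mutant and 5.26 ± 0.292% in wild type, and Pcdh19 took 17.0 ± 4.11% in the mutant and 6.18 ± 0.255% in wild type. Per kilobase of annotated exon the share of Pcdh17 was 6.23 ± 0.678% in the mutant and 19.5 ± 0.818% in wild type, so its share depends on the length used while its direction between genotypes was the same. The share of Pcdh10 turned with the length, at 38.3% in the mutant and 32.1% in wild type by FPKM but 33.6% in the mutant and 34.6% in wild type per kilobase of annotated exon.

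None of the 4 delta-1 protocadherins was called, 0 higher and 0 lower, and the groups overlapped in each. Pcdh1, the most abundant per length at 9.40 FPKM in the mutant and 9.70 FPKM in wild type, had 115.6, 122.4 and 120.6 CPM in the mutant, against 130.6, 118.4 and 127.6 CPM in wild type (adjusted p = 0.416). Pcdh11x, an X-linked member, had 12.1, 18.9 and 17.0 CPM in the mutant, against 6.70, 5.07 and 12.4 CPM in wild type, with a log2 fold change of 0.97 ± 0.43 and adjusted p = 0.0596. Wild type replicate 3 was 2.11 times the mean of the other wild type libraries, and without it the log2 fold change was 1.46 with adjusted p = 0.00620. Pcdh7, the counterpart of the Xenopus NF-protocadherin, averaged 10.7 ± 3.09 CPM in the mutant and 13.3 ± 2.18 CPM in wild type (adjusted p = 0.345), and Pcdh9 8.78 ± 3.22 CPM in the mutant and 8.76 ± 1.23 CPM in wild type (adjusted p = 0.976).

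Mutant replicate 2 stood low in 4 of the 9 delta protocadherins and high in 2, a description of that library with no test. Its ratio to the mean of the other mutant libraries was 0.577 for Pcdh7, 0.483 for Pcdh9, 0.476 for Pcdh18 and 0.514 for Pcdh19. In Pcdh8 it was mutant replicate 1 that stood low, at 0.486. The ratio of mutant replicate 2 was near 1 for Pcdh1, at 1.04, and for Pcdh10 and Pcdh17 it was 0.873 and 0.875. It was above the others in Pcdh8, at 1.38, and in Pcdh11x, at 1.3. The SD of log2 CPM among the mutant libraries lay at percentile 93.2 of all tested genes for Pcdh7 and between percentiles 95.8 and 96.7 for Pcdh8, Pcdh9, Pcdh18 and Pcdh19. Without mutant replicate 2 the log2 fold change of Pcdh18 was 1.59.

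**Figure D4:**
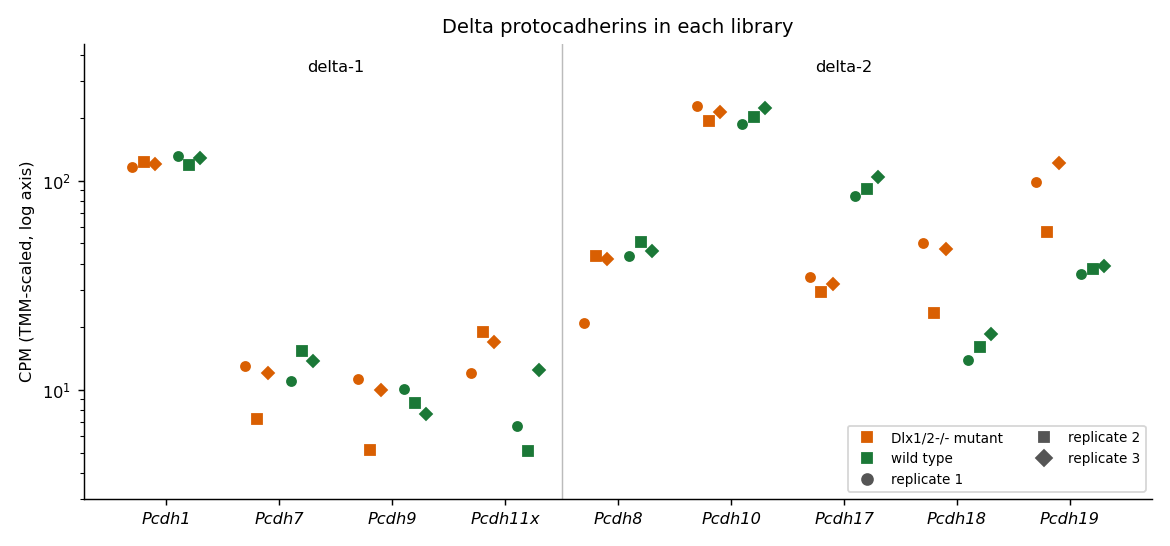
CPM of the 9 delta protocadherins in each library on a log axis, mutant points left of wild type points within each gene. Pcdh17 is below wild type in all mutant libraries, Pcdh18 and Pcdh19 are above it in all, and mutant replicate 2 is the lowest mutant library for Pcdh7, Pcdh9, Pcdh18 and Pcdh19.

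Of 3 other nonclustered protocadherins, 1 was called. Pcdh20 (ENSMUSG00000050505, chromosome 14, 88464743 to 88471396, minus strand) had 2.32, 2.40 and 2.83 CPM in the mutant, against 8.04, 8.06 and 9.72 CPM in wild type, from 121 mutant and 369 wild type reads. Its groups were far apart, with a log2 fold change of −1.77 ± 0.13 and adjusted p = 0.000146, or 3.42-fold lower. Pcdh15, the tip link partner of Cdh23 in hair cells, had 11.1, 11.0 and 10.8 CPM in the mutant, against 5.84, 9.03 and 9.11 CPM in wild type, and did not pass although its groups did not overlap (adjusted p = 0.0961). Pcdh12, a protocadherin of endothelium, had 4.83 ± 0.599 CPM in the mutant and 4.09 ± 1.91 CPM in wild type (adjusted p = 0.704).

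Of the giant cadherins, Fat4, Celsr1, Fat1 and Dchs2 were called, the first 2 higher and the others lower. Fat4 (ENSMUSG00000046743, chromosome 3, 38886940 to 39011985, plus strand), which with its partner Dchs1 regulates neural progenitors and planar polarity, had 156.8, 142.9 and 139.6 CPM in the mutant, against 73.9, 68.5 and 72.4 CPM in wild type. The lowest mutant library lay far above the highest wild type library. Its means were 146.4 ± 9.11 CPM in the mutant and 71.6 ± 2.81 CPM in wild type, with a log2 fold change of 1.03 ± 0.06 and adjusted p = 1.87e-05. Dchs1, its binding partner and the most abundant of the group at 38.9 FPKM in the mutant and 33.9 FPKM in wild type, had 583.1, 590.5 and 613.4 CPM in the mutant, against 560.4, 516.9 and 504.1 CPM in wild type. The groups of Dchs1 did not overlap, but the difference of 0.18 ± 0.05 on the log2 scale had adjusted p = 0.0551. It was called with DESeq2 (adjusted p = 0.0360) and without wild type replicate 1 (adjusted p = 0.0186).

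Fat1, which is known for roles in cell migration and neural tube closure, had 117.6, 137.7 and 121.9 CPM in the mutant, against 208.3, 183.0 and 204.7 CPM in wild type (log2 fold change −0.66 ± 0.09, adjusted p = 0.000562). Dchs2 had 23.2, 23.9 and 26.8 CPM in the mutant, against 39.5, 36.9 and 49.9 CPM in wild type (−0.78 ± 0.15, adjusted p = 0.00303). In both the groups were apart, so the Fat and Dachsous genes split, with Fat4 against Fat1 and Dchs2. Fat3, which shapes amacrine cells in the retina, stood at 78.4 ± 7.25 CPM in the mutant and 94.1 ± 13.5 CPM in wild type (adjusted p = 0.126).

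The Celsr genes encode Flamingo cadherins, which act in planar polarity, in axon tracts and in the cilia of ependymal cells. Celsr1, the progenitor member, had 93.8, 94.4 and 90.8 CPM in the mutant, against 77.2, 65.5 and 67.1 CPM in wild type, with groups apart and a log2 fold change of 0.41 ± 0.08 (adjusted p = 0.00505). Celsr3, the member of postmitotic neurons and the most abundant, had 599.8, 600.4 and 645.6 CPM in the mutant, against 618.7, 560.0 and 575.1 CPM in wild type, and did not pass (log2 fold change 0.07 ± 0.06, adjusted p = 0.411). Celsr2 averaged 311.1 ± 23.0 CPM in the mutant and 281.5 ± 14.3 CPM in wild type (adjusted p = 0.150).

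Among the calsyntenins, Clstn2 alone was called. Clstn2 (ENSMUSG00000032452, chromosome 9, 97444395 to 98033181, minus strand), a postsynaptic protein, had 66.3, 64.4 and 68.9 CPM in the mutant, against 31.1, 26.1 and 30.9 CPM in wild type. The replicates of each group lay close together and the groups far apart, with means of 66.6 ± 2.27 CPM in the mutant and 29.4 ± 2.82 CPM in wild type, a log2 fold change of 1.18 ± 0.09 and adjusted p = 3.75e-05. Clstn1, an adaptor that links cargo to kinesin and the most abundant member of the whole superfamily at 46.5 FPKM in the mutant and 49.1 FPKM in wild type, had 268.6, 262.9 and 274.4 CPM in the mutant, against 288.6, 298.5 and 277.6 CPM in wild type (log2 fold change −0.10 ± 0.04, adjusted p = 0.143). Clstn3 stood at 59.2 ± 2.71 CPM in the mutant and 63.2 ± 9.58 CPM in wild type (adjusted p = 0.572). The share of Clstn2 in the summed FPKM of the calsyntenins was 16.7 ± 0.331% in the mutant and 7.62 ± 0.904% in wild type.

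Several members are neighbours on a chromosome. In Fat1 and Cdh8, Cdh8 and Cdh11, Cdh20 and Cdh7, and Pcdh17 and Pcdh20, both genes of the pair were called in the same direction. Fat1 and Cdh8 lie 53.97 Mb and 427 coding genes apart. Pcdh18 and Dchs2, which follow each other among the members on chromosome 3, were called higher and lower. They lie 33.37 Mb and 150 coding genes apart, and no limit of distance was set for neighbours. Many other called genes lay beside uncalled ones. On chromosome 15 the type II genes Cdh6, Cdh9, Cdh10, Cdh12 and Cdh18 follow each other with 0 annotated coding genes between them, at gaps of 3.56, 1.96, 1.44 and 0.96 Mb. Along this run the log2 fold changes were 0.44 for Cdh6, −2.21 for Cdh9, 0.45 for Cdh10 and −2.07 for Cdh12, with Cdh18 untested, so the called falls alternated with genes that were not called and whose values lay on the other side of 0. On chromosome 8, Cdh8, Cdh11 and Cdh5 follow each other in the same manner over gaps of 3.22 and 1.32 Mb, with log2 fold changes of −2.37, −0.63 and −0.10, the last not called. On chromosome 1, Cdh20 and Cdh7 were both higher, at 0.72 and 2.12, but 4.99 Mb and 20 coding genes lie between them. On chromosome 14, Pcdh8, Pcdh17, Pcdh20 and Pcdh9 lie in a row with at most 2 coding genes in any gap, and only the inner pair, Pcdh17 and Pcdh20, was called, both lower. On chromosome 3, Pcdh10 was not called and Pcdh18, 4.31 Mb and 1 coding gene away, was higher.

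**Figure D5:**
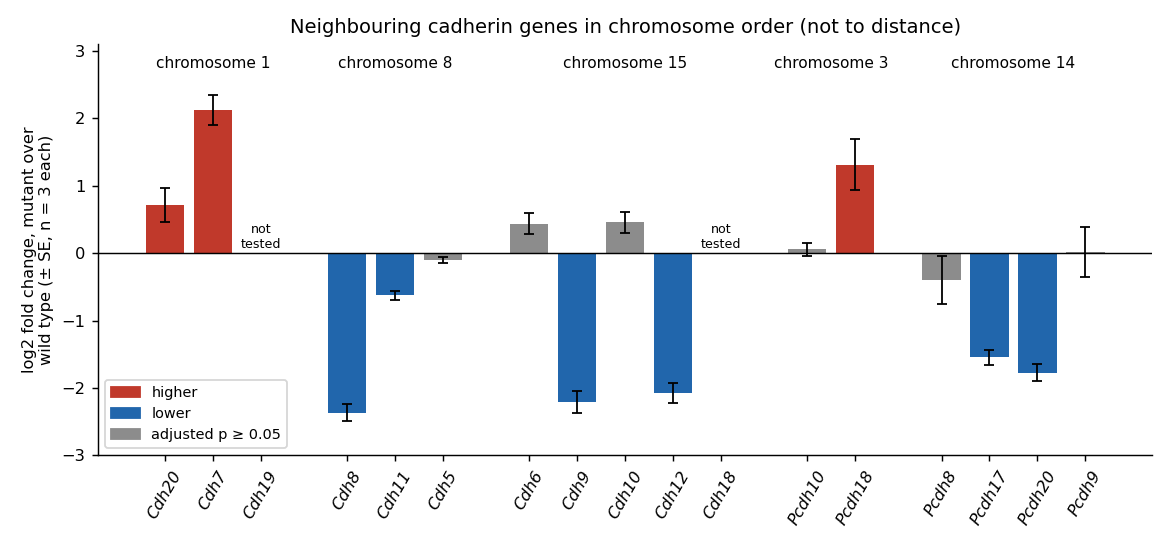
Log2 fold change, mutant over wild type, with SE (n = 3 each), of neighbouring members in their order along chromosomes 1, 3, 8, 14 and 15, evenly spaced and not to distance. On chromosome 15 Cdh9 and Cdh12 lie near −2 with Cdh6 and Cdh10 above 0, and on chromosome 8 the fall is deepest at Cdh8.

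Exons of 12 members overlap another annotated gene, 7 of them called, beside 47.5% of all tested members. The sources used here do not state whether counting used the strand. The overlap covers over 5% of the exon bases of 6 members. Among the called ones, Fat4 shares 7.04% of its exon bases with the antisense gene C230034O21Rik, which had 272 reads over the mutant group and 96 over the wild type group beside 7050 mutant and 3026 wild type reads of Fat4. Dchs2 shares 12.05% with Gm10710, which had 120 reads in the mutant and 154 in wild type beside 1184 mutant and 1807 wild type reads of Dchs2, and Cdh9 shares 6.33% with an antisense gene.

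Genes that work with cadherin proteins were read from the same fit. Of 58 tested genes in 6 lists of such partners, 11 were higher and 7 lower, or 31.0% called beside 24.0% of all genes, and 0 of the called ones reached 2-fold. Among 9 catenins, the cytoplasmic partners of classic cadherins, 1 was higher and 2 were lower, or 33.3% called. Pkp4, a p120-like catenin, had 48.7 ± 2.69 CPM in the mutant and 73.5 ± 3.93 CPM in wild type (adjusted p = 0.000661). Jup, or plakoglobin, had 31.3 ± 3.59 CPM in the mutant and 42.1 ± 3.59 CPM in wild type (adjusted p = 0.0202), and Ctnna1, the alpha-catenin of epithelia and progenitors, had 186.1 ± 1.77 CPM in the mutant and 160.1 ± 8.46 CPM in wild type (adjusted p = 0.0164). Each of the calls on Jup and Ctnna1 was lost in 4 of 12 alternatives, with adjusted p up to 0.0654 for Jup without wild type replicate 3 and 0.0594 for Ctnna1 without wild type replicate 3. The median log2 fold change of the list was −0.02.

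Of 12 partners of Fat and Dachsous, which are the Golgi kinase Fjx1 and genes of the Hippo growth pathway, 5 were higher and 0 lower, beside 11.2% higher and 12.8% lower over all genes. Fjx1, the mouse Four-jointed that phosphorylates Fat and Dachsous repeats, had 80.8 ± 4.50 CPM in the mutant and 54.6 ± 6.68 CPM in wild type (log2 fold change 0.56, adjusted p = 0.00411). Tead2, a transcription factor of this pathway, had 169.4 ± 12.5 CPM in the mutant and 117.4 ± 6.27 CPM in wild type (adjusted p = 0.00102). The kinase gene Stk3 was higher by 0.65 on the log2 scale (adjusted p = 0.00237) and Limd1, a LIM protein that inhibits Lats kinases, by 0.47 (adjusted p = 0.00148). Tead1, a relative of Tead2, was not called at 28.6, 30.6 and 30.0 CPM in the mutant, against 37.5, 143.3 and 20.7 CPM in wild type (log2 fold change −1.18 ± 0.83, adjusted p = 0.206), and wild type replicate 2 stood far above the others. It is named after its values were seen, as the one partner past 2-fold. The median of the list was 0.16. In the planar polarity core, 2 of 10 were higher and 0 lower, a share of calls of 20.0% beside 24.0% over all genes: Vangl2, the membrane partner of Celsr proteins, by 0.26 (adjusted p = 0.00404), and Dvl3, a Dishevelled, by 0.34 (adjusted p = 0.0116).

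Of 11 genes of the WAVE complex, the actin regulator that delta protocadherin tails bind, 1 was higher and 1 lower. That was 18.2% called, beside 24.0% of all genes. Nckap1 was at 193.4 ± 13.7 CPM in the mutant and 245.5 ± 19.1 CPM in wild type (adjusted p = 0.0110), and Wasf2 at 72.1 ± 2.52 CPM in the mutant and 59.2 ± 2.71 CPM in wild type (adjusted p = 0.0132; 0.0515 without wild type replicate 2). Of 10 genes that cleave cadherins, 1 was higher and 1 lower, or 20% called. Mmp14, a membrane metalloprotease, was higher, at 119.6 ± 4.43 CPM in the mutant and 73.5 ± 5.20 CPM in wild type (log2 fold change 0.70, adjusted p = 0.000192). Aph1b, a gamma-secretase subunit, had a log2 fold change of −0.30 (adjusted p = 0.0134, and 0.0580 in the libraries with low Xist alone). Of 6 partners of calsyntenins, 1 was higher and 3 were lower, or 66.7% called. App, the amyloid precursor protein gene, had 297.2 ± 8.74 CPM in the mutant and 383.0 ± 20.6 CPM in wild type (adjusted p = 0.00165), while the calls on Klc1 and Kif5b, at adjusted p = 0.0434 and 0.0492, were lost in 9 and 11 of 12 alternatives.

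Some markers of cell types that the dissection could hold were called too. Their counts are to be read beside the 24.0% called over all genes. Of 4 tested markers of pallial glutamatergic neurons, 3 were higher, Neurod2 and Neurod6 among them, while Tbr1, at 6.91 ± 2.77 CPM in the mutant and 12.6 ± 7.08 CPM in wild type, was not called (adjusted p = 0.182). The summed CPM of the 6 listed markers, most of it from Neurod2 and Neurod6 in the mutant, was 101.5 to 151.3 in the mutant and 19.6 to 57.2 in wild type, while Emx1 and Slc17a7 had too few reads to be tested, at 0.248 and 0.209 CPM in the mutant and 0.553 and 0.234 CPM in wild type. Of 5 markers of the oligodendrocyte lineage, 2 were higher, and their sum was 125.3 to 142.0 CPM in the mutant and 70.8 to 112.7 CPM in wild type. Of 4 tested markers of mesenchyme and meninges, Pdgfrb was higher and Col1a1 lower, with sums of 93.3 to 108.0 CPM in the mutant and 74.6 to 80.2 CPM in wild type that were mostly Pdgfrb, and Dcn and Lum had at most 7 reads in either group. Markers of choroid plexus and ependyma summed to 15.9 to 16.9 CPM in the mutant and 10.7 to 16.5 CPM in wild type, with 1 of 2 tested, Aqp1, higher and Ttr at 0.105 CPM in the mutant and 0.130 CPM in wild type. Of 3 markers of the medial ganglionic eminence, Lhx8 was lower, with sums of 206.5 to 251.8 CPM in the mutant and 189.5 to 350.2 CPM in wild type. Of 7 genes that mark the ganglionic eminences, 4 were lower and 1 higher, with sums of 1048 to 1552 CPM in the mutant and 2391 to 3000 CPM in wild type. Their part in the differences of the cadherin genes was not tested.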

How the data were processed

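Total RNA of the LGE was sequenced in 6 libraries. The authors deposited raw read counts per gene, FPKM and a p-value for each gene, per the file headers. HISAT2 2.0.4, StringTie 1.3.0, edgeR, GRCm38.p4 and mm10 are listed, without roles, per the submitters' processing notes. The sources used here state no counter, annotation or strand setting. The deposited FPKM was used for levels between genes, and the authors' p-value only for counts of shared calls.

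The counts were tested with edgeR 4.0.16 under R 4.3.3, by filterByExpr by group, TMM scaling, a quasi-likelihood F test with genotype as the term, two-sided, and Benjamini-Hochberg adjustment over the 15326 genes tested with calls below 0.05. Dispersion over all genes gave a biological coefficient of variation of 0.122. CPM is after TMM scaling, and SEs come from log2 CPM with 0.5 added to each count. Replicates of a group differed beyond sampling noise (chi-square per degree of freedom 7.54 to 14.9), and scripts were tested on simulated counts. SDs and SEs measure the scatter among the libraries of each group, while floors of counts cover counting error only.

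Positions came from GENCODE M21 (GRCm38), where all 45 gene IDs were found, and promoters from RefSeq on GRCm38.p6. The members and lists were chosen with earlier results of these data known. Per-library values were given for members called at 2-fold or more and for the highest of each subfamily by FPKM, with other members where neighbours were compared, and for partner lists the up to 4 called genes of smallest adjusted p were named. Alternatives were a replicate block, each library left out, RLE scaling, no filter, DESeq2 1.42.0 and a 2-fold minimum. A term for high Xist, the libraries with low Xist alone and levels per kilobase of annotated exon were chosen after seeing the data.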

Additional observations from a re-analysis of the deposited data

How the results depend on the processing

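Of 19 called members, 16 kept the call under all 12 alternatives, and Cdh20, Cdh23 and Pcdh18 lost it at least once. Of 21 uncalled members, 4 gained a call at least once (Cdh6, Cdh10, Pcdh11x and Dchs1), and 4 uncalled ones near 0 changed sign (Cdh4, Pcdh9, Pcdh10 and Pcdh12). The count of higher members was 9 and became 7 to 9 with each library left out, 9 with RLE scaling or no filter, 11 with DESeq2, 11 with a term for high Xist and 10 in the libraries with low Xist alone. The count of lower members was 10 in all of these and 6 at 2-fold or more, where higher members were 6. Replicate numbers did not pair the libraries, since deviations of same-numbered libraries correlated at −0.176, 0.0426 and −0.168 across genes and no mutant library correlated best with the wild type library of its own number. With the replicate number as a block, 7 members were higher and 10 lower, as Cdh20 and Cdh23 lost the call (adjusted p = 0.0931 and 0.0710), and 1223 of all genes were higher and 1458 lower, against 1715 and 1958 without it. Leaving out each library gave 1211 to 1626 higher and 1416 to 1956 lower genes. Of the partner genes, 11 were higher, or 7 to 10 with each library left out, with 7 without wild type replicate 2. There were 7 lower, or 4 to 6 with each library left out, with 4 under the block, without mutant replicate 2, without wild type replicate 2, without wild type replicate 3 and in the libraries with low Xist alone. The cause was not tested. Depth limits the statements on Cdh1, Cdh9, Cdh12, Cdh15, Cdh23 and the 5 untested members, where a few reads decide a value.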
